A study of Mus musculus with 16 samples.

Results

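The levels of 9 genes known for hormonal or metal control were followed in submandibular (salivary) glands of mice that had received ionising radiation and of unirradiated mice sampled at 3 times of day. The genes were taken by name from a table of 55181 genes: the 7 glucocorticoid-induced genes Zbtb16, Fkbp5, Tsc22d3, Sgk1, Klf9, Errfi1 and Pdk4, and the 2 metallothionein genes Mt1 and Mt2. All 9 passed the filter on low values (2 or more libraries with an FPKM of 1 or higher), which kept 15161 genes. FPKM is the number of fragments scaled to transcript length and to the fragments mapped, so it is a level per length.

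The irradiated glands came from wild-type (WT) mice and were taken 6 h or 24 h after a dose of 5 Gy, with 2 libraries each. The unirradiated control glands, also WT, came from ZT3, ZT9 and ZT15, where zeitgeber time (ZT) counts hours from lights on, again with 2 libraries each. The mice were aged 6 to 8 weeks, and the dissected gland was used whole. Neither the clock hour of irradiation nor the sex of the mice is given, and the labels do not say that replicates were separate animals. The 2 libraries at 6 h, at 24 h and at ZT15 differed in sex-linked transcripts and so did not come from 1 animal, whereas those at ZT3 and at ZT9 were alike in them, and their spread may be technical. The description of the ZT3 controls carries a T0 tag, which was not read as the hour of irradiation. Since the clock hour is unknown, each irradiated group was set against all 3 control times. In untreated glands, binding was mapped by CUT&Tag, which cuts and tags chromatin next to an antibody-marked protein; it gave 2 lists of summits for each of the clock proteins Bmal1, Nr1d1 and Dbp, with the target named under genotype in the labels.

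Glucocorticoids are adrenal steroid hormones whose blood level follows the day and rises with stress, with a peak near waking, which is the start of the night in mice. Inside the cell they bind the glucocorticoid receptor (Nr3c1), which leaves its Hsp90 chaperones, enters the nucleus and switches on target genes through short DNA elements. Metallothioneins are small cysteine-rich proteins that bind zinc and copper, and their genes respond both to metals, through the zinc sensor Mtf1, and to glucocorticoids.

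Some differences between libraries cut across the groups. Y-linked transcripts marked 5 libraries, replicate 1 at 6 h and at 24 h, the ZT3 pair and ZT15 replicate 2. Xist marked the other 5, replicate 2 at 6 h and at 24 h, the ZT9 pair and ZT15 replicate 1. The ZT3 and ZT9 controls therefore differ in time and in sex-linked class together, which cannot be told apart. Transcripts of the granular convoluted tubule, a duct segment rich in kallikreins and growth factors, summed to 15723 to 28353 FPKM at 6 h and 12855 to 20809 at 24 h, against 51446 to 68030 at ZT3, 24596 to 32851 at ZT9 and 25375 to 40061 at ZT15. Klk1 alone made up 24004 and 31512 FPKM of the ZT9 sums, and stood at 4180 and 2963 at ZT3. Gene by gene, 7 of the 8 markers were higher at 24 h than at ZT9 (median log2 difference 1.54). Against ZT3 and ZT15, 1 and 0 of the 8 were higher at 24 h (medians -4.63 and -1.07). The 8 T cell markers summed to 0.802 to 2.51 FPKM at 24 h, against 5.30 to 130 in the controls, and 6 of them were below every control library in both 24 h libraries. The same held for 4 of 5 blood markers, the haemoglobins, which with Alas2 summed to 32.6 to 46.8 FPKM at 24 h, against 102 to 174 in the controls. It also held for 4 of 6 fibroblast markers, a list that summed to 175 to 244 FPKM at 24 h, against 262 to 583 in the controls. The part of these lists in the differences at 24 h was not tested. Acinar markers of the gland were abundant in every library, with sums of 73826 and 165602 FPKM at 24 h, against 142559 to 365797 in the controls, but the mucin Muc19 was at 0.274 FPKM in ZT9 replicate 2, Prol1, another acinar product, had an FPKM of 0 in replicate 1 at 24 h, and products of the parotid, a neighbouring salivary gland, summed to 2560 to 105318 FPKM. Of the 8 acinar markers, Aqp5 and Scgb1b27 were below every control library in both 24 h libraries, and Slc12a2 was above every one. Scgb1b27, the most abundant acinar marker, was at 65041 and 109015 FPKM at 24 h, against 111503 to 288885 in the controls. The part of the acinar markers in the differences at 24 h was not tested either. In these bulk samples, fewer cells of a type and less RNA per cell cannot be told apart. The 0 of Prol1, which was at 22178 to 56742 FPKM in the controls, lowers the acinar sum of that library and was not traced to a cause. Relative depth, read from the steps between low FPKM values, ranged from 0.690 to 1.57 times that of ZT3 replicate 1.

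At 24 h after irradiation, both libraries were above every control library for 5 of the 9 genes (Zbtb16, Fkbp5, Errfi1, Mt1 and Mt2). None of the 9 was below every control library. Among all kept genes 22.6% were above in the same way and 3.65% below. At 6 h none of the 9 was above all 6 controls, where 9.76% of kept genes were; Zbtb16 and Mt2 were without replicate 2 at 6 h, and Mt2 was without ZT9 replicate 1. All 5 therefore met the rule of being above all 6 controls at 24 h and not at 6 h, which 18% of kept genes met. The controls cover ZT3, ZT9 and ZT15 only, so control levels at other hours are not known. The genes differed in the spread of their control-time means. Those of Fkbp5, Sgk1 and Zbtb16 spanned 5.23-, 4.99- and 5.41-fold, whereas those of Errfi1 and Klf9 spanned 1.297- and 1.23-fold.

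**Figure D1:**
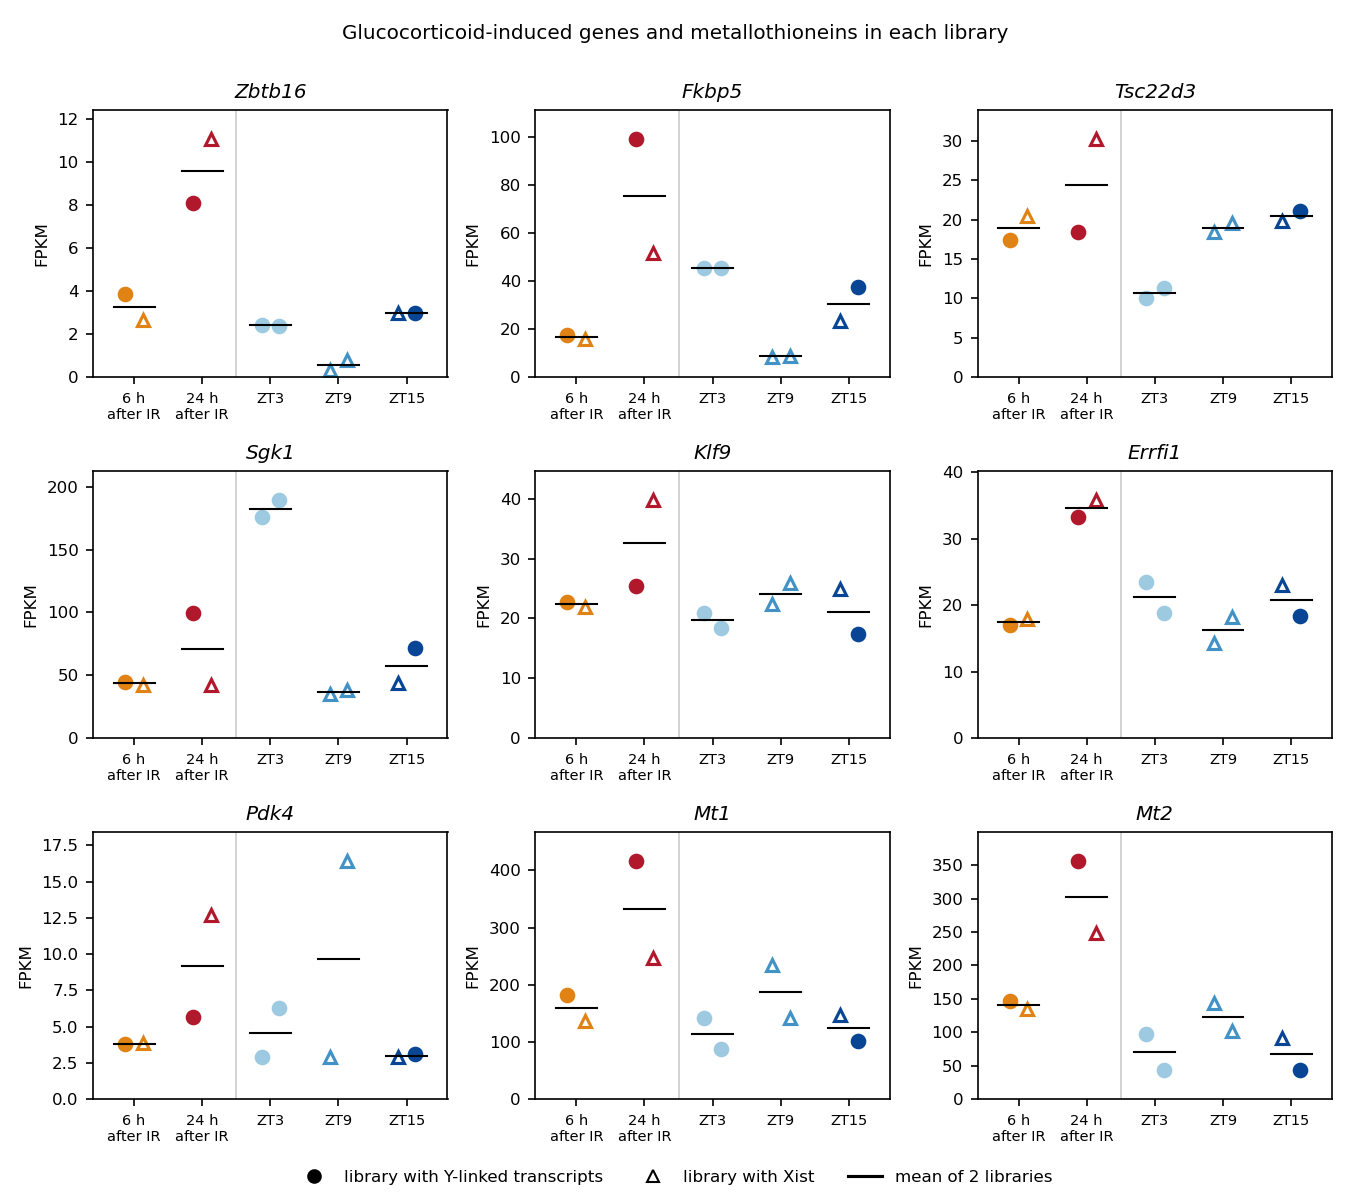
FPKM of the 9 genes in each of the 10 libraries, with 6 h and 24 h after irradiation (IR) to the left of the control times ZT3, ZT9 and ZT15; filled circles are libraries with Y-linked transcripts, open triangles are libraries with Xist, and bars are the mean of 2 libraries. Zbtb16 stands at 8.07 and 11.1 FPKM at 24 h, with every other library at 3.87 or less, whereas Sgk1 is highest at ZT3, at 176 and 190.

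Zbtb16 encodes a zinc-finger transcription factor that responds to glucocorticoid in many tissues, and it showed the clearest difference at 24 h. Its level was 3.87 and 2.64 FPKM at 6 h and 8.07 and 11.1 FPKM at 24 h, against 2.44 and 2.35 at ZT3, 0.327 and 0.779 at ZT9, and 2.996 and 2.984 at ZT15. The lower 24 h library was 2.69 times the highest control library, so the groups did not overlap, whereas the 6 h libraries fell on either side of the ZT15 values. On the log2(FPKM + 1) scale, which understates changes of low genes, the difference of 24 h from ZT3 was 1.62 (SE 0.24, limma adjusted p = 0.0444), from ZT9 2.77 (SE 0.24, adjusted p = 0.00516) and from ZT15 1.39 (SE 0.24, adjusted p = 0.0490). By this test Zbtb16 rose at 24 h against each control time. It was the only 1 of the 9 genes called (adjusted p under 0.05 over all kept genes) against ZT3, where 0.495% of kept genes were called, and against ZT15, where 1.13% were.

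The calls against ZT3 and ZT15 were close to the threshold, and 16 of 18 alternative fits ended each of them. With a Y-linked term the limma adjusted p was 0.122 against ZT3 and 0.0912 against ZT15, with quantile normalization 0.110 and 0.0931, and in a fit of only the compared libraries 0.0803 and 0.193. Leaving out any 1 of the libraries at 6 h, 24 h, ZT3 or ZT15 ended them, with differences from ZT3 of 1.42 to 1.83 and adjusted p-values of 0.0686 to 0.293, and from ZT15 of 1.19 to 1.60 and adjusted p-values of 0.0719 to 0.184. Against ZT9 the call held with each library left out, and was lost in the fit of only the compared libraries (adjusted p = 0.0515). Within the libraries with Y-linked transcripts the 24 h library was 3.11 times the mean of 3 controls, and within the libraries with Xist 8.11 times the mean of 3 controls.

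Fkbp5 encodes a co-chaperone of Hsp90 that lowers the affinity of the glucocorticoid receptor for its hormone and is itself a target of the receptor. It had 17.5 and 15.9 FPKM at 6 h and 99.2 and 51.8 FPKM at 24 h, against 45.6 and 45.3 at ZT3, 8.45 and 8.91 at ZT9, and 23.2 and 37.5 at ZT15. The 24 h libraries were the highest of all, but the lower of them was only 1.14 times the ZT3 libraries, and the 6 h libraries lay between ZT9 and ZT15. Fkbp5 rose at 24 h against ZT9, by 2.91 on the log2 scale (SE 0.32, limma adjusted p = 0.00989). The difference from ZT15 was 1.25 (SE 0.32, adjusted p = 0.0863) and from ZT3 0.65 (SE 0.32, adjusted p = 0.327), neither of which passed. Within the sex-linked classes the 24 h library was 2.32 times the mean of 3 controls in the Y-linked class and 3.83 times in the Xist class. Against ZT9, 3 of the 9 genes were called (Zbtb16, Fkbp5 and Errfi1), where 5.11% of kept genes were.

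Errfi1, which encodes a feedback inhibitor of the epidermal growth factor receptor, was nearly level in the controls. It had 17.1 and 17.9 FPKM at 6 h and 33.3 and 35.9 FPKM at 24 h, against 23.6 and 18.8 at ZT3, 14.4 and 18.3 at ZT9, and 23.1 and 18.4 at ZT15. Both 24 h libraries were above all others, and the 6 h libraries sat below both ZT3 and both ZT15 libraries. The gene rose against ZT9, by 1.05 (SE 0.19, limma adjusted p = 0.0328), a call that was lost without either library at 6 h, 24 h or ZT3, or without ZT9 replicate 1 (0.89 to 1.10, adjusted p = 0.0603 to 0.196). The call was also lost with median-of-ratios rescaling (0.78, limma adjusted p = 0.0961) or quantile normalization (0.80, adjusted p = 0.107). A Y-linked term, a term for the parotid transcript Amy1 or a fit of only the compared libraries ended it too (adjusted p = 0.0949, 0.0624 and 0.131). In all, 12 of 19 alternatives lost it. The differences from ZT3 (0.69, adjusted p = 0.144) and ZT15 (0.72, adjusted p = 0.0901) did not pass. Errfi1 was above the 3 controls of its sex-linked class in both 24 h libraries, 1.65-fold in the Y-linked class and 1.93-fold in the Xist class.

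Tsc22d3, or GILZ, encodes a leucine-zipper protein that carries part of the anti-inflammatory action of glucocorticoids. Its level was 17.5 and 20.4 FPKM at 6 h and 18.4 and 30.3 FPKM at 24 h, against 10.1 and 11.3 at ZT3, 18.4 and 19.5 at ZT9, and 19.9 and 21.1 at ZT15. ZT3 was the low time, and outside ZT3 only replicate 2 at 24 h stood apart. The difference of 24 h from ZT3 was 1.08 (SE 0.22, limma adjusted p = 0.0959), while the differences from ZT9 and ZT15 were 0.31 and 0.20 and turned to -0.038 and -0.14 without replicate 2 at 24 h.

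Klf9, a Krüppel-like transcription factor and a direct receptor target in several tissues, had 22.8 and 21.9 FPKM at 6 h and 25.3 and 39.9 FPKM at 24 h, against 21.0 and 18.4 at ZT3, 22.3 and 26.0 at ZT9, and 24.8 and 17.4 at ZT15. Only replicate 2 at 24 h lay outside the controls, since replicate 1 at 24 h was just under the highest control library, ZT9 replicate 2. Its differences at 24 h were 0.67 from ZT3, 0.39 from ZT9 and 0.59 from ZT15, with adjusted p-values of 0.225, 0.357 and 0.200 (limma).

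Sgk1 encodes a kinase that raises sodium uptake through the epithelial sodium channel and is a target of both corticosteroid receptors. It was at 44.8 and 42.1 FPKM at 6 h and 99.4 and 42.0 FPKM at 24 h, against 176 and 190 at ZT3, 35.1 and 38.2 at ZT9, and 43.6 and 71.3 at ZT15. The ZT3 libraries were the highest, and the irradiated libraries overlapped ZT15. Every library with Y-linked transcripts had more Sgk1 (44.8 to 190 FPKM) than every library with Xist (35.1 to 43.6 FPKM), irradiated or not. The part of sex-linked class in the Sgk1 values was not tested. Sgk1 was the only member lower at 24 h than at ZT3, by a log2 difference of -1.48 (SE 0.38, limma adjusted p = 0.135), and its 6 h difference from ZT3 was -2.05 (SE 0.38, adjusted p = 0.0644). That 6 h difference passed without either library at 24 h (limma adjusted p = 0.0231 without replicate 1 and 0.0223 without replicate 2). The direction against ZT15 at 24 h rested on single libraries: it was 0.21 (adjusted p = 0.760), but -0.40 without replicate 1 at 24 h and -0.14 without ZT15 replicate 1. The high ZT3 values came with the high sums of granular convoluted tubule transcripts there, and the part of these in the Sgk1 difference was not tested.

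The window of 1 of the 6 annotated Sgk1 starts carries a full glucocorticoid response element, which is AGAACA, any 3 bases, then TGTTCT. This element, which reads as itself on the other strand, was found in only 3 of 32851 promoter windows of 300 bases (0.00913%), and in 1 of the 16 windows of the members. The window is shown because no other member window has the full element, and lies at chr10:21993640-21993939 on the plus strand (RefSeq, GRCm38.p6), with the element in capitals at -189 to -175 from the start.
Sgk1: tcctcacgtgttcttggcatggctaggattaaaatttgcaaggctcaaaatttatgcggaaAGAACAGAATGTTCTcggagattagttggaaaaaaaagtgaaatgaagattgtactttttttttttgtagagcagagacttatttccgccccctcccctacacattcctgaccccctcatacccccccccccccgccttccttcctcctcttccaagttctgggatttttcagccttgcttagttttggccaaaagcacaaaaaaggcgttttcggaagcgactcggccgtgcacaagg
AGAACA alone, on either strand, was in 19% of all windows and in 4 of the 16 member windows, those of Sgk1 and Tsc22d3. Tsc22d3 has 3 annotated starts. A match says only that these letters are there.

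Pdk4 encodes a kinase that inhibits the pyruvate dehydrogenase complex and is raised by fasting and glucocorticoids. It had 3.77 and 3.86 FPKM at 6 h and 5.67 and 12.7 FPKM at 24 h, against 2.90 and 6.26 at ZT3, 2.91 and 16.5 at ZT9, and 2.90 and 3.09 at ZT15. The highest library was an unirradiated one, ZT9 replicate 2, and the groups overlapped. Differences at 24 h were 0.85 from ZT3, 0.21 from ZT9 and 1.26 from ZT15, with adjusted p-values of 0.534, 0.881 and 0.291 (limma), and the difference from ZT9 changed sign when values were rescaled by median-of-ratios (-0.034) or quantile normalization (-0.043).

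The 2 libraries with most Pdk4 were also those with most brown adipocyte transcripts. The 3 brown adipocyte markers (Ucp1, Cidea and Elovl3) summed to 16.1 FPKM in replicate 2 at 24 h and to 85.6 in ZT9 replicate 2, and to at most 6.98 in every other library. Ucp1, the uncoupling protein that defines brown fat, was listed at 0 in 4 libraries and at 26.8 FPKM in ZT9 replicate 2, and Elovl3 was at 0 in 9 libraries. The 7 general adipocyte markers summed to 76.7 and 199 FPKM at 6 h and 26.5 and 381 at 24 h, against 15.2 to 393 in the controls. The part of fat in the Pdk4 values was not tested.

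**Figure D2:**
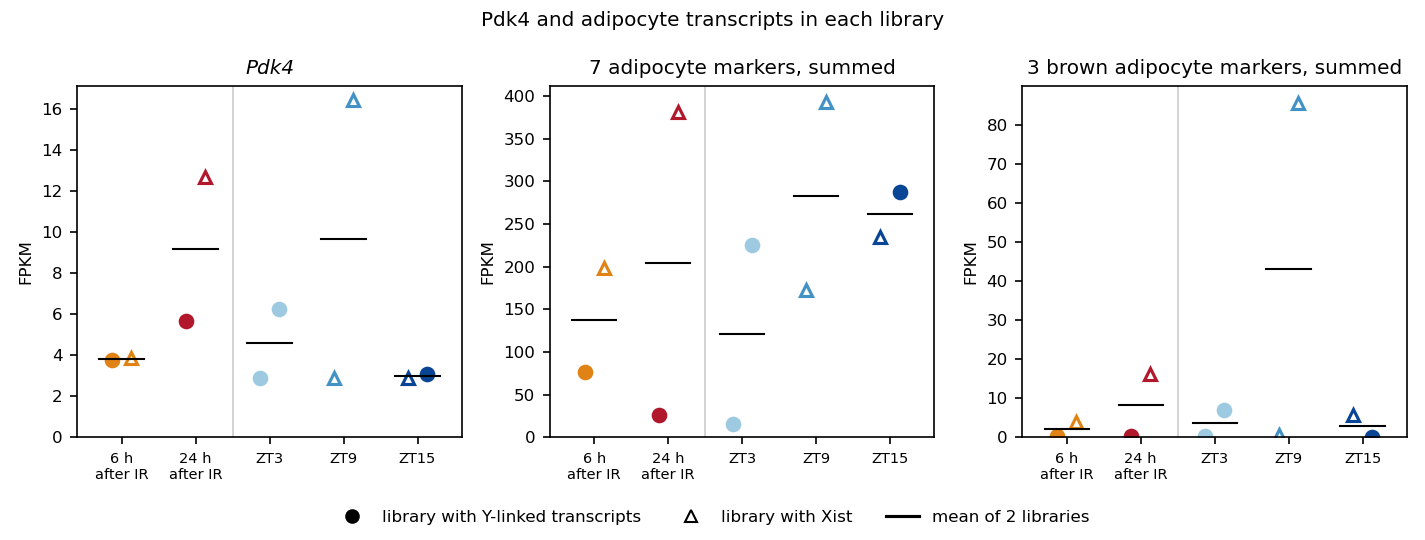
FPKM per library of Pdk4 and the summed FPKM of 7 adipocyte and 3 brown adipocyte markers, with irradiated groups (IR) left of the control times; filled circles are libraries with Y-linked transcripts, open triangles those with Xist, bars the mean of 2 libraries. ZT9 replicate 2 is highest in all 3 panels, at 16.5, 393 and 85.6 FPKM.

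Mt1 and Mt2 were the most abundant of the 9 genes, with means of 184 and 141 FPKM over the 10 libraries. Mt1 had 183 and 136 FPKM at 6 h and 417 and 247 FPKM at 24 h, against 141 and 87.7 at ZT3, 235 and 141 at ZT9, and 147 and 102 at ZT15. Mt2 had 146 and 135 FPKM at 6 h and 357 and 249 FPKM at 24 h, against 98.03 and 43.5 at ZT3, 143 and 102 at ZT9, and 90.6 and 44.0 at ZT15. The 24 h libraries were the highest for both genes, by a wide margin for Mt2, whose lower 24 h library was 1.74 times the highest control, and by a narrow one for Mt1, where that ratio was 1.05.

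No metallothionein difference passed the test over all genes in the fit without covariates; with Amy1, a parotid transcript, as a term, Mt2 passed against ZT3 and ZT15 (limma adjusted p = 0.0488 and 0.0478). For Mt2 the difference of 24 h was 2.17 from ZT3 (SE 0.45, limma adjusted p = 0.0947), 1.29 from ZT9 (adjusted p = 0.124) and 2.22 from ZT15 (adjusted p = 0.0612). For Mt1 it was 1.52 from ZT3 (SE 0.38, adjusted p = 0.131), 0.82 from ZT9 (adjusted p = 0.222) and 1.39 from ZT15 (adjusted p = 0.101). Within each of the 5 groups, the library with more Mt1 was also the one with more Mt2. Mt2 made up more of the pair in irradiated glands: the ratio of Mt2 to Mt1 was 0.802 and 0.993 at 6 h and 0.855 and 1.01 at 24 h, against 0.694 and 0.495 at ZT3, 0.610 and 0.725 at ZT9, and 0.616 and 0.432 at ZT15. All 4 irradiated libraries were above all 6 controls in this ratio, which was picked out after the values were seen and was not tested. Within sex-linked classes, Mt2 at 24 h was 5.77 times its 3 controls in the Y-linked class and 2.22 times in the Xist class, and Mt1 was 3.78 and 1.42 times.

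The metallothionein promoters are shown for their metal response elements, the sites of Mtf1, searched as TGCACNC or TGCGCNC on both strands and set in capitals. The windows run from 250 bases before to 50 after the start, both on the plus strand (RefSeq, GRCm38.p6), Mt1 at chr8:94178839-94179138 and Mt2 at chr8:94172368-94172667, so the pair lies side by side on chromosome 8.
Mt1: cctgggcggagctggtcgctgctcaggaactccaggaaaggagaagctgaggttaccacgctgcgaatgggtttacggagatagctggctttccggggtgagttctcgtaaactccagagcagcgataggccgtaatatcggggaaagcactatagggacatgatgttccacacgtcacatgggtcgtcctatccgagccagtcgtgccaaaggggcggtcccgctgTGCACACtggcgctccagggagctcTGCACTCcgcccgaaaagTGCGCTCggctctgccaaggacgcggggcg
Mt2: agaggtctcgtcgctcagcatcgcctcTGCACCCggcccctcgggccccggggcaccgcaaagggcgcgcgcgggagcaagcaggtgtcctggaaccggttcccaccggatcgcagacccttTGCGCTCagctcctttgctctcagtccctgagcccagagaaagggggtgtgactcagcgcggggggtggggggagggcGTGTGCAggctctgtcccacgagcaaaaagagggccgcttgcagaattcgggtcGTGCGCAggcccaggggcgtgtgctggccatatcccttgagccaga
Mt1 has 3 such matches and Mt2 has 4, where 1.97% of all windows have at least 3 and 0.517% at least 4. The counts cover these windows alone. The annotated Mt1 gene begins at chr8:94178883, upstream of the start used for its window, chr8:94179089. Of the other member windows, only 1 of Sgk1 has a match. Neither metallothionein window holds AGAACA.

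**Figure D3:**
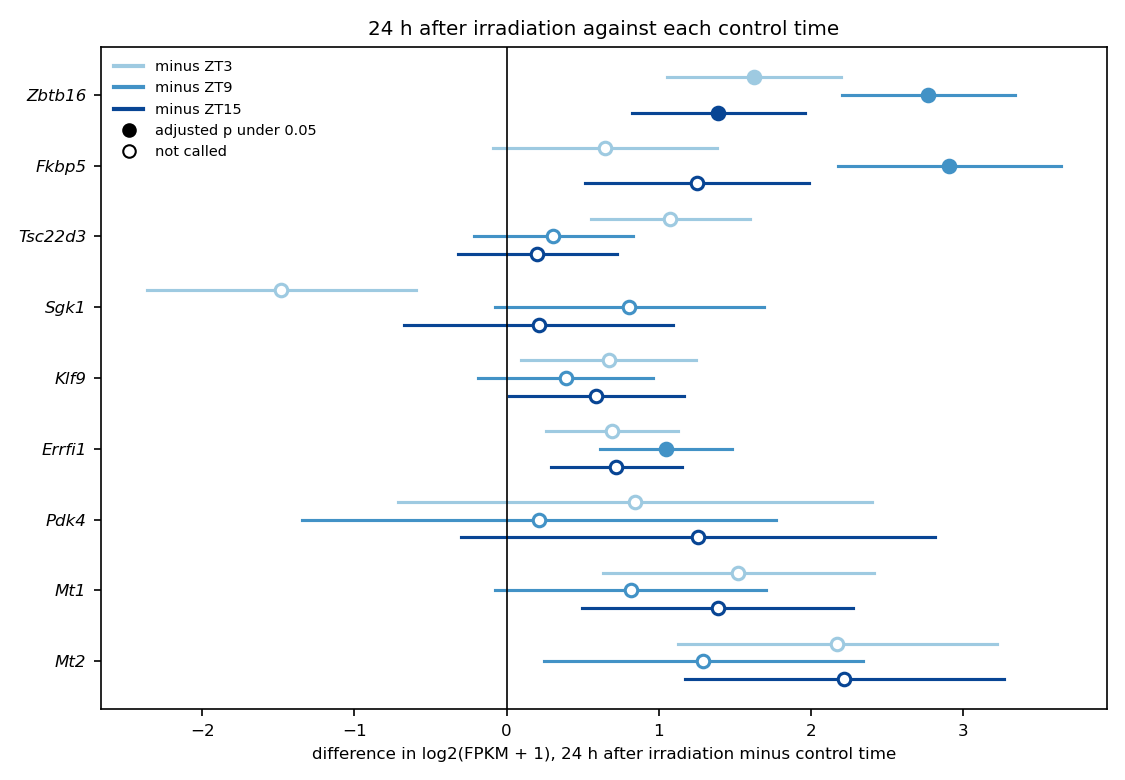
Difference in log2(FPKM + 1) between 24 h after irradiation and each control time for the 9 genes, with 95% confidence intervals from the limma fit; filled points have an adjusted p under 0.05. Zbtb16 is called against all 3 control times, at 1.62, 2.77 and 1.39, and Sgk1 minus ZT3 is the only point left of 0, at -1.48.

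Across the list, 8 of the 9 genes were higher at 24 h than at ZT3, 9 than at ZT9 and 9 than at ZT15, with median log2 differences of 0.85, 0.82 and 1.25. Of the 15161 kept genes, 10830, 10288 and 9531 were higher in these contrasts. At an unadjusted p under 0.05 there were 7, 4 and 6 of the 9, where 17.9%, 26.7% and 23.8% of kept genes were under it. Over all kept genes the medians were 0.21, 0.23 and 0.16, so the median kept gene was also higher at 24 h, and the share of genes above all controls fell to 9.48% after median-of-ratios rescaling, which centres that shift near 0. After this rescaling Zbtb16, Errfi1 and Mt2 were still above all 6 controls at 24 h, and Fkbp5 and Mt1 were not. Zbtb16 then differed from ZT3 by 1.40 (limma adjusted p = 0.105).

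No member was called at 6 h against any control time, where 0.792% (ZT3), 0.514% (ZT9) and 0.389% (ZT15) of kept genes were called by limma. At an unadjusted p under 0.05 the counts were 4, 2 and 2 of 9, where 14.7%, 12.2% and 8.73% of kept genes were under it. The nearest was Zbtb16 against ZT9, at 1.45 (SE 0.24, adjusted p = 0.0583), followed by Sgk1 against ZT3. Fkbp5 showed how far the choice of control decides the direction at 6 h: the difference was -1.39 from ZT3 (adjusted p = 0.110), 0.87 from ZT9 (adjusted p = 0.355) and -0.79 from ZT15 (adjusted p = 0.525). Mt2 was higher at 6 h than each control time, by 1.09, 0.21 and 1.14, with adjusted p-values of 0.319 to 0.875, and the difference from ZT9 was -0.026 without ZT9 replicate 2.

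Set directly against 6 h, 24 h was higher in the mean of all 9 genes, as it was for 8934 of 15161 kept genes. The median log2 difference was 0.99, against 0.10 over all kept genes. The largest differences were 2.04 for Fkbp5 (SE 0.32, limma adjusted p = 0.104), 1.31 for Zbtb16 (adjusted p = 0.118), 1.08 for Mt2 (adjusted p = 0.247) and 1.02 for Mt1 (adjusted p = 0.210). None was called, as was the case for all but 0.0198% of kept genes. At an unadjusted p under 0.05 there were 5 of 9, against 19.4% of kept genes. For Tsc22d3 and Sgk1 the direction turned without replicate 2 (-0.033) or replicate 1 (-0.046) at 24 h.

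In the unirradiated glands, no member passed the F test over the 3 control times at an adjusted p under 0.05, and 0.0198% of kept genes did. At an unadjusted p under 0.05 there were 4 of 9 genes, where 13.1% of kept genes were under it. These were Fkbp5 (limma adjusted p = 0.180), Sgk1 (adjusted p = 0.195), Zbtb16 (adjusted p = 0.199) and Tsc22d3 (adjusted p = 0.278). The orders were not alike. Fkbp5 stood highest at ZT3, then ZT15, then ZT9, with no overlap between the libraries of the 3 times. Sgk1 had the same order, with ZT9 and ZT15 less far apart (43.6 and 71.3 FPKM at ZT15, against 35.1 and 38.2 at ZT9). Zbtb16 was highest at ZT15 and ZT3, which differed little, and lowest at ZT9. Tsc22d3 ran the other way from Sgk1, lowest at ZT3, with ZT15 just above ZT9. For Errfi1, Klf9, Pdk4, Mt1 and Mt2 the libraries of at least 2 times overlapped and the adjusted p was 0.473 or more.

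Some control times can be set side by side within a sex-linked class. Between the libraries with Y-linked transcripts, ZT15 replicate 2 and the ZT3 libraries were at 71.3 against 176 and 190 FPKM for Sgk1, 21.1 against 10.1 and 11.3 for Tsc22d3, 37.5 against 45.6 and 45.3 for Fkbp5, and 2.984 against 2.44 and 2.35 for Zbtb16. Between the libraries with Xist, ZT15 replicate 1 and the ZT9 libraries were at 23.2 against 8.45 and 8.91 FPKM for Fkbp5 and 2.996 against 0.327 and 0.779 for Zbtb16, whereas they were at 43.6 against 35.1 and 38.2 for Sgk1 and 19.9 against 18.4 and 19.5 for Tsc22d3. Each class holds 3 control libraries, 1 from ZT15 and a pair whose spread may be technical. The ZT3 and ZT9 libraries share no class, and the part of sex-linked class in these differences was not tested.

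The differences of ZT9 from ZT3 were above 1 on the log2 scale for 3 of these genes. Fkbp5 was lower at ZT9 by a log2 difference of -2.26 (limma adjusted p = 0.0980), Sgk1 by -2.29 (adjusted p = 0.108) and Zbtb16 by -1.14 (adjusted p = 0.133), and none was called, with 0.0066% of kept genes called in that contrast (4 members at an unadjusted p under 0.05, against 16% of kept genes). Without either of the 24 h libraries, whose own spread enters the common estimate, Fkbp5 and Sgk1 passed (adjusted p = 0.0352 and 0.0352 without replicate 1, 0.0345 and 0.0345 without replicate 2). The contrasts of ZT15 with ZT3 and with ZT9 called no member either, with 0.0198% and 0% of kept genes called; at an unadjusted p under 0.05 they had 2 members each, against 11.4% and 7.3% of kept genes.

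**Figure D4:**
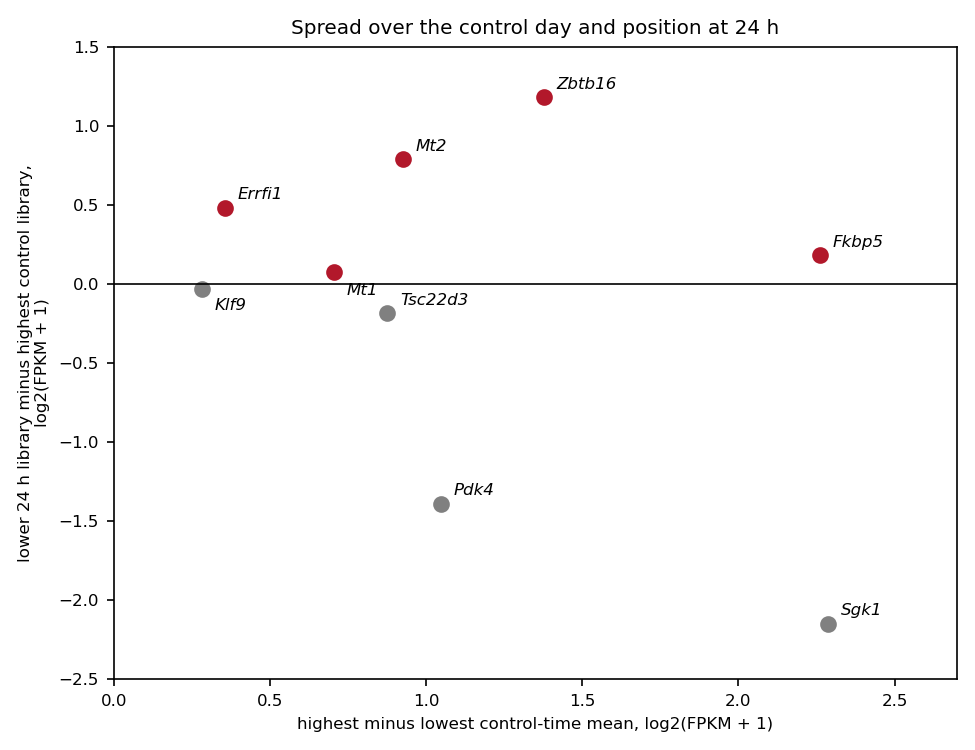
For each gene, the spread of the 3 control-time means (x axis) against the gap from the highest of 6 control libraries to the lower 24 h library (y axis), both in log2(FPKM + 1); red points lie above 0. Fkbp5 and Sgk1 have like spreads, 2.26 and 2.29, but lie at 0.18 and -2.15 on the y axis, and Zbtb16 has the largest gap, 1.18.

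Sorted by the rule, Errfi1, Mt1, Mt2, Fkbp5 and Zbtb16 were above all 6 control libraries at 24 h. Control-time spreads on the log2 scale were 0.36, 0.70 and 0.93 for Errfi1, Mt1 and Mt2, and 2.26 and 1.38 for Fkbp5 and Zbtb16. Sgk1 and Tsc22d3 had control differences at an unadjusted p under 0.05 and did not meet the rule at 24 h, where Sgk1 lay within the range of the controls and Tsc22d3 had 1 library above it and 1 inside it. Klf9 and Pdk4 did neither. No gene met the rule for change over the control day, which needed an adjusted p under 0.05.

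The receptor that these genes share was measured in every library. Nr3c1, the glucocorticoid receptor, had 14.8 and 15.6 FPKM at 6 h and 13.2 and 14.6 FPKM at 24 h, against 8.98 and 10.9 at ZT3, 9.88 and 10.8 at ZT9, and 10.0 and 15.9 at ZT15. The irradiated libraries were above 5 of the 6 controls and below ZT15 replicate 2. Nr3c2, the mineralocorticoid receptor, ranged from 3.72 to 5.33 FPKM in irradiated glands, against 2.98 to 10.5 in controls. Hsd11b1, the enzyme that regenerates active glucocorticoid, had 33.5 and 18.5 FPKM at 6 h and 38.4 and 38.4 at 24 h, against 22.8 to 73.2 in the controls, and Hsd11b2, which inactivates it, was at 0.362 FPKM or less in every library. Of the 13 kept genes of the receptor machinery none was called at 24 h against ZT3 (10 higher, median 0.29, 1 at an unadjusted p under 0.05), nor against ZT9 (12 higher, median 0.39, 6 at an unadjusted p under 0.05) or ZT15 (7 higher, median 0.0055, 0 at an unadjusted p under 0.05). The shares of kept genes under that threshold were 17.9%, 26.7% and 23.8%, and 10830, 10288 and 9531 of 15161 kept genes were higher. Of these 13 genes, 1 was above every control at 24 h and 1 below, where 22.6% and 3.65% of kept genes were. The coactivator Ncoa2 was above (14.7 and 14.9 FPKM, against 6.32 to 12.8). The co-chaperone Fkbp4 was below (120 and 128 FPKM, against 130 to 173).

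Other known glucocorticoid targets gave a mixed picture. Of 21 kept genes, 19 were higher at 24 h than at ZT3, with a median log2 difference of 0.78, and 1 was called, Per1, a clock gene with a receptor element. Of all 15161 kept genes 0.495% were called there and 10830 were higher. At an unadjusted p under 0.05 (limma) there were 10, 7 and 9 of the 21 against ZT3, ZT9 and ZT15. The shares of kept genes under it were 17.9%, 26.7% and 23.8%. Per1 had 26.0 and 25.9 FPKM at 6 h and 22.7 and 49.8 FPKM at 24 h, against 6.60 and 6.92 at ZT3, 24.7 and 21.2 at ZT9, and 18.3 and 15.3 at ZT15. It rose against ZT3 by 2.16 (SE 0.32, limma adjusted p = 0.0385), but replicate 1 at 24 h was below ZT9 replicate 1, and the differences from ZT9 and ZT15 had adjusted p-values of 0.318 and 0.131.

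In the same list 8 of 21 genes were above all 6 controls at 24 h, where 22.6% of kept genes were. The 6 with the widest gap were Lcn2, Arrdc2, Ddit4, Scnn1a, Foxo3 and Anxa1. Lcn2, an iron-scavenging secreted protein, had 108 and 291 FPKM at 6 h and 502 and 202 FPKM at 24 h, against 2.57 to 126 in the controls, and was called against ZT9 (5.95, limma adjusted p = 0.0321) and not against ZT3 (2.09, adjusted p = 0.333). Scnn1a, the alpha subunit of the epithelial sodium channel, was at 12.6 and 10.8 FPKM at 6 h, below every control, and at 56.0 and 35.6 FPKM at 24 h, above every control, with the controls at 12.8 to 27.8. Ddit4, an inhibitor of mTORC1 signalling, was above the controls at both times (39.3 and 31.1 FPKM at 6 h and 26.6 and 25.0 at 24 h, against 7.06 to 19.2), as was the transcription factor Foxo3 (16.5 and 12.0 FPKM at 6 h and 15.2 and 12.4 at 24 h, against 6.11 to 10.1). Arrdc2, an arrestin-domain protein, had 12.9 and 17.3 FPKM at 24 h, against 5.84 to 8.78, and Anxa1, an anti-inflammatory annexin, 150 and 250 FPKM, against 70.0 to 125. At 6 h, 5 of the 21 genes of this list were above all controls (Per1, Nfkbia, Ddit4, Bcl6 and Foxo3), against none of the 9 members and 9.76% of kept genes.

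Other metal-handling genes were taken as a list of 9 kept genes. None was called by limma at 24 h against ZT3 (7 higher, median 0.15, 0 at an unadjusted p under 0.05) or ZT15 (5 higher, median 0.18, 0 at an unadjusted p under 0.05). Against ZT9, 8 were higher (median 0.16, 3 at an unadjusted p under 0.05) and 2 were called, the zinc importer Slc39a14 (1.53, limma adjusted p = 0.03195) and the glutathione synthesis enzyme Gclc (1.29, adjusted p = 0.0350). Of kept genes 5.11% were called against ZT9, and 10830, 10288 and 9531 of 15161 were higher against ZT3, ZT9 and ZT15. The shares of kept genes at an unadjusted p under 0.05 were 17.9%, 26.7% and 23.8% against ZT3, ZT9 and ZT15. Slc39a14 had 13.4 and 13.9 FPKM at 6 h and 18.4 and 13.6 FPKM at 24 h, against 3.43 to 12.5 in the controls, so all irradiated libraries were higher. In all, 1 of the 9 was above every control at 24 h and 1 below, where 22.6% and 3.65% of kept genes were. The metal sensor Mtf1 ranged from 1.94 to 4.20 FPKM in irradiated glands, against 1.70 to 3.74 in controls. Of the remaining metallothioneins, Mt4 was listed at 0 in every library and Mt3 in 8 of 10.

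Among the 12 genes of pyruvate dehydrogenase control and fasting, none was called against ZT3 at 24 h (8 higher, median 0.16, 0 at an unadjusted p under 0.05, where 17.9% of kept genes were). In that contrast 10830 of 15161 kept genes were higher. Pdp1, the phosphatase that opposes Pdk4 on pyruvate dehydrogenase, was above every control at 24 h, at 32.0 and 23.8 FPKM against 8.61 to 21.2. In all, 1 of the 12 was above every control and 0 below, where 22.6% and 3.65% of kept genes were. The other kinases of this complex overlapped the controls: Pdk1, for example, had 31.0 and 30.4 FPKM at 24 h, against 23.0 to 34.7. Of 6 kept relatives of the members none was called by limma against ZT3 (0 at an unadjusted p under 0.05), and none lay above or below all controls at 24 h.

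In the CUT&Tag lists, the starts of the members carried summits of all 3 clock proteins, at shares that must be read against long lists. Of the 8 members with a start in the promoter table (all but Zbtb16), the number with a summit within 5 kb in replicates 1 and 2 was 8 and 7 for Bmal1, where 75% and 31.1% of 10657 kept genes had one, 5 and 8 for Nr1d1 (14.4% and 78.3%), and 8 and 4 for Dbp (80.3% and 29.1%). All 8 had a summit in at least 4 of the 6 lists, as did 39.9% of genes. Sgk1, Klf9 and Mt1 had one in all 6, as did 10.2% of genes. The Zbtb16 gene, chr9:48651797-48836225, held 3 to 13 summits per list within its 184 kb.

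Where the summits lie differed between the members. At Mt1 the nearest summits of the 6 lists were at -69 to 35 bp from the start used for its window. That stretch holds the metal response elements printed for that gene. At Mt2 those of 4 lists were at 16 to 59 bp. By the authors' score, counted from the top of each list, the Mt1 summits ranked at 4.35% to 24.2%. Those of Mt2 ranked lower, at 53.9% to 98.3%. At Klf9 all 6 were upstream, at -390 to -231 bp, and ranked between the top 4.26% and 27% of their lists by the authors' score. At Sgk1 those of 5 lists were at -202 to -95 bp from a start and the sixth was 4780 bp away; at Pdk4 those of 5 lists were at -318 to -79 bp. Tsc22d3 and Errfi1 had summits in 4 lists each, with distances from more than 1 start. At Tsc22d3 they were at -583 to -485 bp from 1 start and, for Nr1d1 replicate 2, at -34 bp from another. That Nr1d1 summit ranked at 92.5% of its list, which also had 1 at -630 bp from the first start, ranked at 14.8%. At Errfi1 they were at -84 to 12 bp from 1 start and, for Bmal1 replicate 2, at 575 bp from another. At Fkbp5 the summits of 5 lists were at -155 to -72 bp, and the window holds an E-box, CACGTG, the motif of Bmal1 with its partner Clock, at -169 to -164. That motif was in 7.15% of all windows and, among members, in those of Fkbp5 and Sgk1. The Fkbp5 window, chr17:28486100-28486399, is given on the minus strand (RefSeq, GRCm38.p6) with the E-box in capitals.
Fkbp5: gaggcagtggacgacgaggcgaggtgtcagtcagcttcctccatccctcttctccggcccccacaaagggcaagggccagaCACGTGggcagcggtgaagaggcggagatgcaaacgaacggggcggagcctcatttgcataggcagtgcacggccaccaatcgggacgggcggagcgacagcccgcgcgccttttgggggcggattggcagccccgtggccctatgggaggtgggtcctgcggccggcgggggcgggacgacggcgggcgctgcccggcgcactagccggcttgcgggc
No member window holds TTATGTAA, a site of Dbp and its relatives that was in 0.938% of all windows, and AGGTCA, the core of the sites read by Nr1d1, was in 3 of the 16 member windows, those of Errfi1 and Sgk1, and in 16.3% of all windows (both strands).

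**Figure D5:**
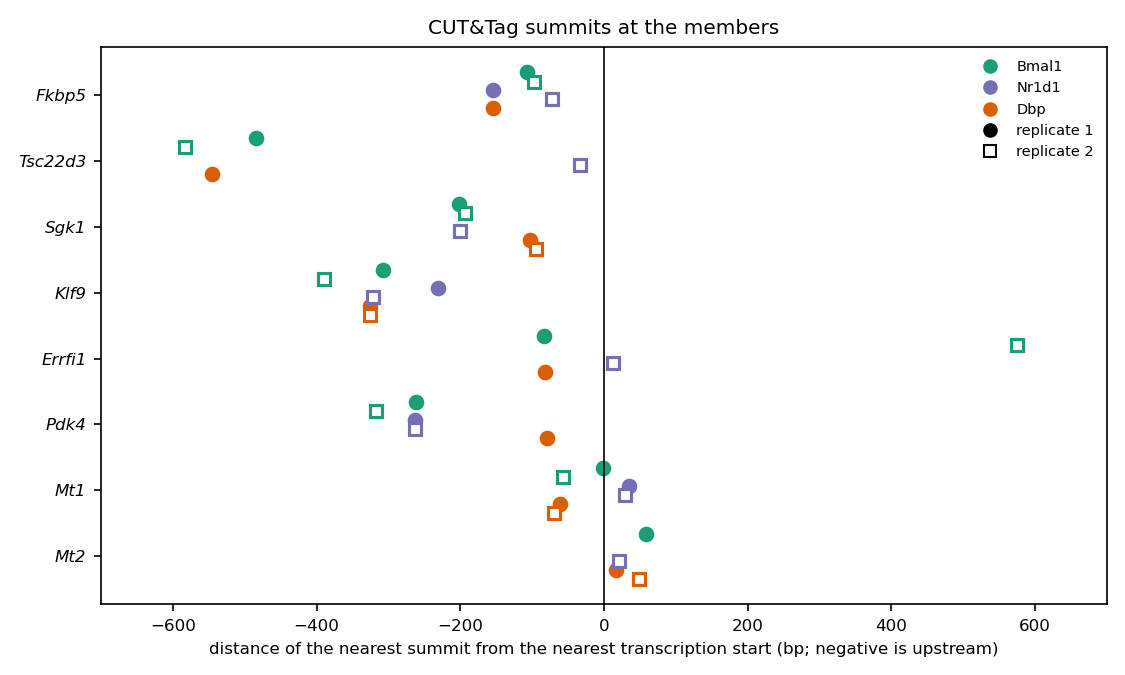
Distance in bp of the nearest CUT&Tag summit from the nearest transcription start of 8 members, for Bmal1, Nr1d1 and Dbp, with filled circles for replicate 1 and open squares for replicate 2; summits beyond 700 bp are not drawn. The 6 summits of Mt1 lie at -69 to 35 bp and those of Klf9 at -390 to -231 bp.

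The genes most like each of 3 members across the 10 libraries were ranked by Pearson's r of log2(FPKM + 1) over 8670 genes (mean FPKM 5 or higher, or a member), as a description. Tarbp2 (r = 0.96), Srrt (0.96) and Luc7l (0.95) were most like Zbtb16. Kif5b (0.97), Ap1g1 (0.97) and Hltf (0.97) were most like Fkbp5, and Cutal (0.98), Mrps31 (0.96) and Klhl5 (0.95) most like Mt2. The 10 points share the groups and the scaling of each library. Mt1 was sixth for Mt2 (r = 0.94), whereas Fkbp5 and Zbtb16 had r = 0.79 with each other and Sgk1 and Mt2 had -0.34. Kif5b, a kinesin heavy chain, had 30.3 and 29.0 FPKM at 6 h and 72.3 and 51.4 FPKM at 24 h, against 48.1 and 43.0 at ZT3, 20.8 and 26.6 at ZT9, and 31.5 and 38.5 at ZT15, which is the order of group means seen for Fkbp5.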

How the data were processed

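RNA was measured in 10 libraries, 5 groups of 2. The authors deposited FPKM per gene, per the labels' protocols; the submitters' processing notes list HISAT2, SAMtools, Cufflinks, Bowtie2 and build mm10 but no roles. After 217 entries with repeated symbols were left out, 55181 genes were joined. FPKM carries no counts, so no counting interval is given and the number of libraries limits the precision. Values were fitted as log2(FPKM + 1) with limma 3.58.1 (R 4.3.3, trend, 1 mean per group over all libraries, 5 residual degrees of freedom), two-sided, Benjamini-Hochberg over 15161 kept genes; the script was tested on simulated data. The deposited CUT&Tag score has no stated scale or caller and was used for ranks inside each list alone. Summits are on mm10, the build of the RefSeq GRCm38.p6 windows (250 bases before to 50 after a start).

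Members and lists were chosen with earlier results of these data known. All members are named. From other lists, genes called at 24 h against ZT3, at 6 h against ZT9 or by the F test were named, and up to 6 per list above all controls at 24 h; both corticosteroid receptors, both Hsd11b enzymes and the 3 most correlated genes of Zbtb16, Fkbp5 and Mt2 were named too, and any other gene was chosen after its values were seen. Alternatives covered the filter, pseudocount, scaling, sex-linked and parotid covariates, replicate block, samples fitted and each library left out. Figures were drawn with matplotlib 3.10.9 in Python 3.11.15.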

Additional observations from a re-analysis of the deposited data

How the results depend on the processing

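The alternatives were computed for 56 pairs of gene and comparison: all members in the 24 h comparisons and the F test (side of the threshold only), and the genes named at 6 h and for ZT9 against ZT3. Of 1057 such values, 982 kept their direction and side of the threshold, 46 lost a call, 17 gained 1 and 12 changed sign. Mt2 at 6 h against ZT9 ranged from -0.026 to 0.45 with each library left out. With each library left out in turn, Tsc22d3 at 24 h ranged from -0.038 to 0.65 against ZT9, from -0.14 to 0.54 against ZT15 and from -0.033 to 0.65 against 6 h, negative without replicate 2 at 24 h. Sgk1 at 24 h ranged from -0.40 to 0.82 against ZT15, negative without replicate 1 at 24 h or without ZT15 replicate 1 (-0.14), and from -0.046 to 1.18 against 6 h. Pdk4 at 24 h against ZT9 ranged from -0.87 to 1.29, negative without replicate 2 at 24 h (-0.31) or ZT9 replicate 1, and was -0.034 with median-of-ratios, -0.043 with quantile normalization and -0.14 with an Amy1 covariate. The cause was not tested.

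Counts of called genes over all kept genes moved widely over the alternatives: at 24 h from 11 to 237 against ZT3 (75 as reported), 30 to 1123 against ZT9 (774) and 8 to 516 against ZT15 (172), and at 6 h from 13 to 141 (120), 4 to 82 (78) and 3 to 68 (59). The 1 member called at 24 h against ZT3, and the 1 against ZT15, became 0 with no filter, a mean FPKM of at least 5 (which drops Zbtb16), a pseudocount of 0.1, median-of-ratios, quantile normalization, a Y-linked covariate or only the compared libraries, and 0 to 1 with each library left out. With the Amy1 covariate the count stayed at 1 in both contrasts, but the gene was Mt2 (adjusted p = 0.0488 and 0.0478), not Zbtb16 (0.0757 and 0.0649). Over the alternatives the adjusted p of Zbtb16 ranged from 0.033 to 0.293 against ZT3, from 0.0396 to 0.193 against ZT15 and from 0.00516 to 0.0515 against ZT9. The 3 members called at 24 h against ZT9 became 0 with only the compared libraries and 2 to 3 with each library left out. At 6 h against ZT3 the count of 0 became 2 with only the compared libraries and 0 to 1 with each left out, and for ZT9 against ZT3 2, and 0 to 2. The 5 members above every control at 24 h became 3 with median-of-ratios and 5 to 7 with each library left out, and the 0 at 6 h became 0 to 2. Members with a summit in the higher-scoring part of a list were 4 of 8 for Bmal1 replicate 2, 2 for Nr1d1 replicate 1 and 2 for Dbp replicate 2, where 18.5%, 7.56% and 16.7% of genes had one, and 7 in each of the other lists (53.5%, 57.2% and 62.2% of genes for Bmal1 replicate 1, Nr1d1 replicate 2 and Dbp replicate 1).

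With a replicate block, 2 members were called at 24 h against ZT3 and 2 against ZT15 (Mt1 and Mt2, adjusted p = 0.0206 and 0.0405 against ZT3, and 0.0257 and 0.0337 against ZT15), and 4 against ZT9 (Mt1 added, 0.0493); Zbtb16 was not called against ZT3 or ZT15 (0.0727 and 0.0629). Deviations of same-numbered libraries correlated from -0.14 to 0.47 between groups, so the numbers are not taken to pair the samples; the library numbered 1 had more Mt1 and more Mt2 in all 5 groups. In the fits without 1 library, the lone library of a group is assumed to vary like the others.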
